A study of Mus musculus with 12 samples.

Results

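The genes described here are 7 subunits of the GABA-A receptor, the alpha subunit genes Gabra2, Gabra3, Gabra4 and Gabra5, the beta subunit genes Gabrb1 and Gabrb2, and the delta subunit gene Gabrd. They were found as all probes whose platform gene symbol was one of these names, which gave 10 probes for the 7 genes, out of 21643 named genes and 39429 gene probes. Gabra2, Gabra3 and Gabrb1 had 2 probes each and the other 4 genes had 1. All 10 probes passed the filter on dim probes and were above background in 12 of 12 mice.

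RNA was compared between C57BL/6J mice (called Bl6) and the strains CSS1 and CSS2, with 4 mice of each strain at postnatal day 14 and 1 array per mouse. The names CSS1 and CSS2 were read as those of chromosome substitution strains, in which a single chromosome of a donor strain replaces the Bl6 chromosome. The labels do not state this, nor the donor, nor any treatment. On each array the mouse's RNA was in one dye and a pool of Bl6 RNA in the other, and 2 of the 4 mice of each strain were in each dye. All values below are log2 ratios of sample over pool with the fitted dye effect removed, so a value of 0 is the level of the Bl6 pool. Whether the 4 Bl6 mice had also given RNA to the pool is not stated. The study's title concerns Srp9 and susceptibility to febrile seizures. The comparisons here ask how receptor subunits differed between each strain and Bl6 and between CSS1 and CSS2.

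GABA-A receptors are chloride channels opened by the inhibitory transmitter GABA. Each is built from several subunits around a pore, usually alpha and beta subunits joined by a gamma or a delta subunit, and the GABA binding site lies between an alpha and a beta subunit. In the developing rodent forebrain the alpha 2, 3 and 5 subunits prevail early, while the alpha 4 and delta subunits rise during postnatal maturation. Receptors with a delta subunit lie mainly outside synapses, carry tonic inhibition and respond strongly to neurosteroids.

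Hippocampus is the tissue in the sample labels, and brains are named in the design text. Markers of dentate granule cells (10 of 10 measured), CA1 pyramidal cells (6 of 6) and CA3 pyramidal cells (7 of 7) were above background in all 12 mice. The same held for 13 of 14 cerebellar markers, 10 of 10 thalamic markers and 8 of 8 striatal markers. At least 89.6% of all gene probes were above background in every mouse, so these counts cannot tell which tissue was sampled. Median sample signals lay at 188 to 408 intensity units, and median local backgrounds at 36 to 42. The share of gene probes above background was 89.6% in CSS2 mouse 1 and up to 99.9% elsewhere. The ratios of arrays with the same dye orientation correlated across probes at 0.168 to 0.70. The lowest signal of any member in any mouse was 491 intensity units, for Gabra2, against a highest background limit of 64.0, and no spot of a member was at the scanner limit. In RNA from whole tissue, fewer cells of a type and less RNA per cell cannot be told apart.

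Gabra2, Gabra4 and Gabrb1 lie together on chromosome 5, in the cluster that also holds Gabrg1. Gabra5 lies on chromosome 7, Gabrb2 on 11, Gabrd on 4 and Gabra3 on X, so no member lies on chromosome 1 or 2. The bases just upstream of the chromosome 5 members are shown because Gabra2 and Gabra4 varied together over the mice, as described below, while the brightest Gabrb1 probe rose with neither. Each sequence is the 250 bases that end just before the annotated start site, from RefSeq (GRCm38.p6), in the direction of transcription. The Gabra2 sequence is chr5:71095850-71096099 and the Gabra4 sequence is chr5:71658309-71658558, both on the minus strand. The Gabrb1 sequence is chr5:71699682-71699931 on the plus strand, upstream of the second of its 2 start sites. Capitals mark matches to the motifs searched, which are GC boxes in Gabra2 and Gabra4 and an NRF1 motif in Gabrb1.
Gabra2: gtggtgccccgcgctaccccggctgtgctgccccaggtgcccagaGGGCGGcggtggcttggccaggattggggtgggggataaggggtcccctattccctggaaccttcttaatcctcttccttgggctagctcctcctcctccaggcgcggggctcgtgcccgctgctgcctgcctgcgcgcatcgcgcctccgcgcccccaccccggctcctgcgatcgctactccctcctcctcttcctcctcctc
Gabra4: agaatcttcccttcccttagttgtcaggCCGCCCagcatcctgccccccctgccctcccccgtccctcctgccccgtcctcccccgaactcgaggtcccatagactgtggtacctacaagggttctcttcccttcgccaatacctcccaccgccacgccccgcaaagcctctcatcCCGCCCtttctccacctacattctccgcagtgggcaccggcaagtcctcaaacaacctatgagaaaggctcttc
Gabrb1: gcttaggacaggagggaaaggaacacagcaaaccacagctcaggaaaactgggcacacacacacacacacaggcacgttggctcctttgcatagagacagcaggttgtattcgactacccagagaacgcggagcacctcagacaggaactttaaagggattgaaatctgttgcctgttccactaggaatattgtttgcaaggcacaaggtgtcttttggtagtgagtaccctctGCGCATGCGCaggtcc
The first start site of Gabrb1 lies 387 bases from that of Gabra4, on the opposite strand. RefSeq promoter windows, which run from 250 bases before to 50 bases after a start site, were matched for 6 of the 7 members, with 10 windows in all. 7 motifs were searched on both strands. The GC box GGGCGG was in 35.7% of all 32851 windows, in the Gabra2, Gabra4 and first Gabrb2 windows, at -205 and 5, at -222 and -74, and at -233 from the start site, of which the one at 5 lies past the end of the sequence shown. The NRF1 motif was in 0.971% of all windows and reads the same on both strands. It was at -16 from the second Gabrb1 start. The EGR motif GCGNGGGCG (5.55% of windows) was in the first Gabrb1 window and, overlapping the GC box, in the first Gabrb2 window. TATAAA (13.6%) was in the first Gabrb2 window and in both Gabra3 windows. TGACGTCA (1.79%), TGANTCA (7.81%) and CACGTG (7.15%) were in none of the 10. These are matches of letters only, and their part in how the members varied over the mice was not tested. GC content of the sequences shown was 70% upstream of Gabra2, 61.2% upstream of Gabra4 and 50.8% upstream of the second Gabrb1 start. In the whole windows it was 66% at the first Gabrb1 start and 50.3% at the second. The Gabra2 window had 70% and the Gabra4 window 58.7%.

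In CSS1 against Bl6, 1 of the 7 members passed the test, Gabrd, which rose. Over all genes 2.03% passed in this comparison, and 1.17% passed as higher. No member passed in CSS2 against Bl6, where 1.04% of genes did, or in CSS1 against CSS2, where 0.97% did. At an unadjusted limma p under 0.05, Gabra5 and Gabrd were counted in both strains against Bl6 (12.8% of all genes in CSS1, 9.83% in CSS2) and Gabra2 in CSS1 against CSS2 (8.5%). The median difference of the 7 members was 0.08 in CSS1, -0.05 in CSS2 and 0.07 in CSS1 over CSS2, beside medians over all genes of -0.0017, 0.0037 and -0.0028. Both strains were set against the same 4 Bl6 mice, so their differences from Bl6 share those values.

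**Figure D1:**
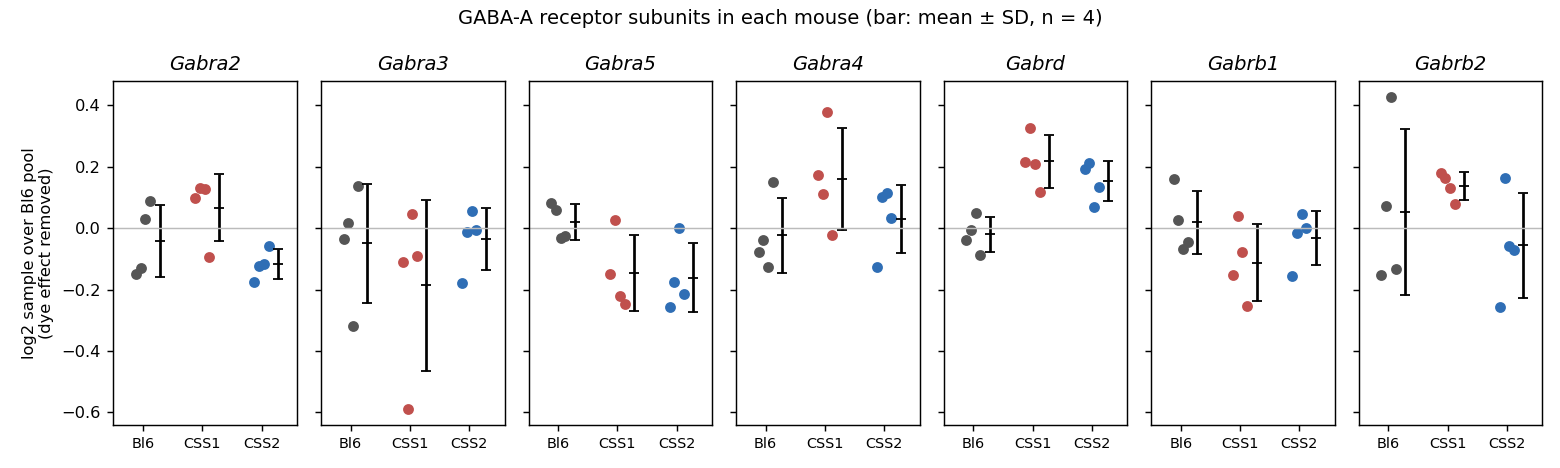
Log2 sample over Bl6 pool of each of the 7 subunits (brightest probe, fitted dye effect removed) in each mouse, 4 points per strain, with the mean ± SD beside them. For Gabrd, all CSS1 and CSS2 mice lie above all Bl6 mice, which holds for no other member.

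Gabrd encodes the delta subunit of extrasynaptic receptors. The Bl6 mice 2, 5, 8 and 11 were at -0.04, -0.01, 0.05 and -0.09. CSS1 mice 3, 6, 9 and 12 were at 0.21, 0.33, 0.21 and 0.12. CSS2 mice 1, 4, 7 and 10 were at 0.19, 0.21, 0.07 and 0.13. Every CSS1 mouse and every CSS2 mouse was above every Bl6 mouse, which was the case for 4.49% of all genes in CSS1 and 4.16% in CSS2, while CSS1 and CSS2 overlapped. The means were -0.02 ± 0.06 in Bl6, 0.22 ± 0.09 in CSS1 and 0.15 ± 0.07 in CSS2 (SD, n = 4). The difference of CSS1 from Bl6 was 0.24 ± 0.05 (SE), or 1.18-fold, with a 95% interval of 0.13 to 0.35 and a limma adjusted p of 0.0404. That of CSS2 from Bl6 was 0.17, or 1.13-fold, with an interval of 0.06 to 0.28, and did not pass (limma adjusted p = 0.211). Between CSS1 and CSS2 the difference was 0.07, with an interval of -0.05 to 0.18 (limma adjusted p = 0.852).

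The Gabrd call lay close to the threshold. It was lost with median centring in place of loess (0.26, limma adjusted p = 0.362), with scale normalization between arrays (0.20, adjusted p = 0.117), without the dye term (adjusted p = 0.0783) and with only the 2 strains in the fit (adjusted p = 0.099). It was also lost without Bl6 mouse 2, 5 or 11, without CSS1 mouse 3, 6 or 9, and without CSS2 mouse 1, 4 or 10, with limma adjusted p from 0.0524 to 0.141 and differences from 0.20 to 0.24. The call was kept without Bl6 mouse 8, CSS1 mouse 12 or CSS2 mouse 7. The difference itself was above 0 under all 11 other settings and in all 12 fits that left out a mouse, between 0.20 and 0.27.

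Markers of 2 glial cell types were higher in the same mice as Gabrd. Of 15 oligodendrocyte markers measured, 9 rose in CSS1 and 8 in CSS2, and none fell. In either direction, 2.03% of all genes passed in CSS1 and 1.04% in CSS2. Of all genes, 4.49% were higher without overlap with Bl6 in CSS1 and 4.16% in CSS2. Mal, a myelin proteolipid, rose by 1.30 in CSS1 (limma adjusted p = 0.00241) and by 1.22 in CSS2 (adjusted p = 0.00356). The list's median lay between -0.28 and 0.09 in the Bl6 mice, between 0.44 and 0.59 in CSS1 and between 0.40 and 0.75 in CSS2, with no overlap between Bl6 and either strain. Of 15 astrocyte markers, 4 rose in CSS1 and 1 in CSS2, with list medians of -0.09 to 0.01 in Bl6, 0.12 to 0.23 in CSS1 and 0.06 to 0.14 in CSS2. Over the 12 mice, Gabrd correlated with the median of the oligodendrocyte list at 0.85, with that of the astrocyte list at 0.83 and with that of the immature neuron list at -0.67. Its correlation was 0.65 with the median of the pan-neuronal list and 0.55 with that of the interneuron list. These points share arrays and strains, and the part of these markers in the Gabrd difference was not tested.

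Gabra4 encodes the alpha subunit that joins delta in extrasynaptic receptors of dentate granule cells and thalamic neurons. Its values were -0.08, -0.04, -0.13 and 0.15 in Bl6 mice 2, 5, 8 and 11. They were 0.17, 0.11, 0.38 and -0.02 in CSS1 mice 3, 6, 9 and 12. The CSS2 mice 1, 4, 7 and 10 had -0.13, 0.10, 0.11 and 0.03. All 3 strains overlapped, with CSS1 mouse 9 highest of all. CSS1 was 0.18 ± 0.09 (SE) above Bl6, with an interval of -0.01 to 0.38 (limma adjusted p = 0.504). CSS2 was 0.05 above Bl6, with an interval of -0.14 to 0.25 (limma adjusted p = 0.941). The probe had a strong dye effect, since arrays with the sample in Cy5 were lower by 0.85 than those with the sample in Cy3 before that effect was removed, and each strain held 2 arrays of each kind. The Gabra4 values correlated over the 12 mice at 0.86 with the median of the CA3 pyramidal cell markers, at 0.85 with that of the dentate granule cell markers and at 0.84 with that of the neocortical markers.

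Gabra5 encodes the alpha 5 subunit, abundant in hippocampal pyramidal cells, where it carries tonic inhibition. The Bl6 mice 2, 5, 8 and 11 were at 0.08, 0.06, -0.03 and -0.03. CSS1 mice 3, 6, 9 and 12 were at -0.15, 0.03, -0.22 and -0.25. CSS2 mice 1, 4, 7 and 10 were at -0.26, -0.17, -0.00022 and -0.21. In each strain 3 of 4 mice were below all Bl6 mice, and CSS1 mouse 6 and CSS2 mouse 7 lay among the Bl6 values. The difference from Bl6 was -0.17 ± 0.07 (SE) in CSS1, with an interval of -0.32 to -0.02 (limma adjusted p = 0.374). In CSS2 it was -0.18 ± 0.07, with an interval of -0.33 to -0.03 (limma adjusted p = 0.402). Neither passed. Gabra5 values correlated at -0.74 with the median of the oligodendrocyte markers and at 0.60 with that of the immature neuron markers.

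Gabra2 encodes the alpha 2 subunit, which is found at synapses and on the axon initial segment. The brightest probe was at -0.15, -0.13, 0.03 and 0.09 in Bl6 mice 2, 5, 8 and 11. It was at 0.10, 0.13, 0.13 and -0.09 in CSS1 mice 3, 6, 9 and 12. It was at -0.18, -0.12, -0.12 and -0.06 in CSS2 mice 1, 4, 7 and 10. CSS1 mouse 12 stood apart from its strain and lay within the CSS2 range, while the other CSS1 mice were above all Bl6 and CSS2 mice. CSS1 was above CSS2 by 0.18 ± 0.07 (SE), with an interval of 0.04 to 0.33, which did not pass (limma adjusted p = 0.405). Against Bl6 the difference was 0.11 in CSS1 (limma adjusted p = 0.664) and -0.08 in CSS2 (adjusted p = 0.839). The second Gabra2 probe gave 0.15 in CSS1 (limma adjusted p = 0.29), -0.05 in CSS2 (adjusted p = 0.887) and 0.20 for CSS1 over CSS2 (adjusted p = 0.191). The 2 probes correlated over the mice at 0.93, and at 0.92 without CSS1 mouse 6, the mouse farthest from the median of the brighter probe.

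Gabra3, on the X chromosome, encodes the alpha 3 subunit, which is common in the immature forebrain. Its brightest probe was at -0.04, 0.02, -0.32 and 0.14 in Bl6 mice 2, 5, 8 and 11. It was at -0.11, -0.59, 0.04 and -0.09 in CSS1 mice 3, 6, 9 and 12. In CSS2 mice 1, 4, 7 and 10 it was at -0.18, -0.01, 0.06 and -0.0045. The lowest values were those of CSS1 mouse 6 and Bl6 mouse 8, which belong to different strains and were labelled in different dyes. The second Gabra3 probe was lowest in the same pair of mice, at -0.18 and -0.17. The difference of CSS1 from Bl6 was -0.14 ± 0.13 (SE), with an interval of -0.42 to 0.15 (limma adjusted p = 0.843), and turned to 0.02 without CSS1 mouse 6. CSS2 differed from Bl6 by 0.01, with an interval of -0.27 to 0.30 (limma adjusted p = 0.991). The probes correlated at 0.71 over the mice, and at 0.48 without CSS1 mouse 6.

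Gabrb1 and Gabrb2 encode beta subunits, which form the GABA site with an alpha subunit. Gabrb2 is abundant in the adult brain. It was at -0.15, 0.07, 0.43 and -0.13 in Bl6 mice 2, 5, 8 and 11. The CSS1 mice 3, 6, 9 and 12 had 0.18, 0.16, 0.13 and 0.08, and the CSS2 mice 1, 4, 7 and 10 had -0.26, 0.16, -0.06 and -0.07. Bl6 spanned all of CSS1, with mouse 8 highest. Gabrb2 differed from Bl6 by 0.08 in CSS1, with an interval of -0.18 to 0.35 (limma adjusted p = 0.921), and by -0.11 in CSS2, with an interval of -0.37 to 0.16 (adjusted p = 0.895). Without Bl6 mouse 8 the value in CSS2 turned to 0.03 and that in CSS1 was 0.22.

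The brightest Gabrb1 probe was at 0.16, 0.03, -0.07 and -0.05 in Bl6 mice 2, 5, 8 and 11. In CSS1 mice 3, 6, 9 and 12 it was at -0.15, 0.04, -0.08 and -0.25, and in CSS2 mice 1, 4, 7 and 10 at -0.16, -0.02, 0.05 and -6.6e-06. The strains overlapped. Gabrb1 differed from Bl6 by -0.13 in CSS1, with an interval of -0.29 to 0.03 (limma adjusted p = 0.589), and by -0.05 in CSS2, with an interval of -0.21 to 0.11 (adjusted p = 0.929). The second Gabrb1 probe gave -0.01 and -0.08. The 2 probes ran against each other over the mice, at a correlation of -0.52, and at -0.21 without CSS1 mouse 12, so the value of Gabrb1 in a given mouse depended on the probe.

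**Figure D2:**
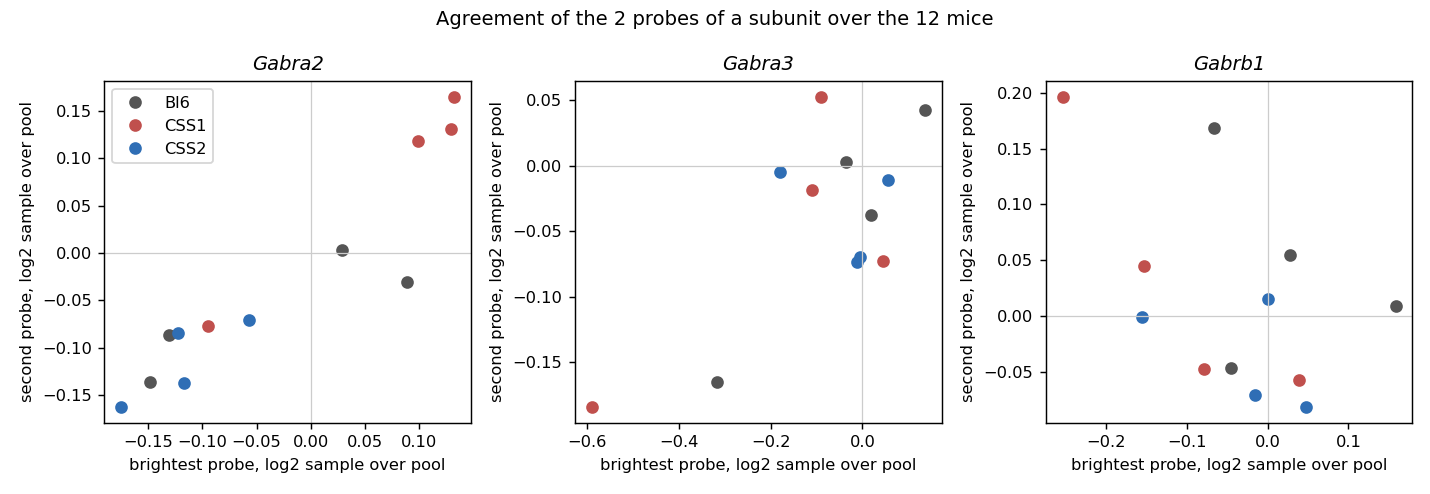
Brightest against second probe of Gabra2, Gabra3 and Gabrb1, each axis in log2 sample over Bl6 pool, 1 point per mouse coloured by strain. The Gabra2 probes rise together, the Gabra3 probes share their 2 lowest mice, and the Gabrb1 probes do not rise together.

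**Figure D3:**
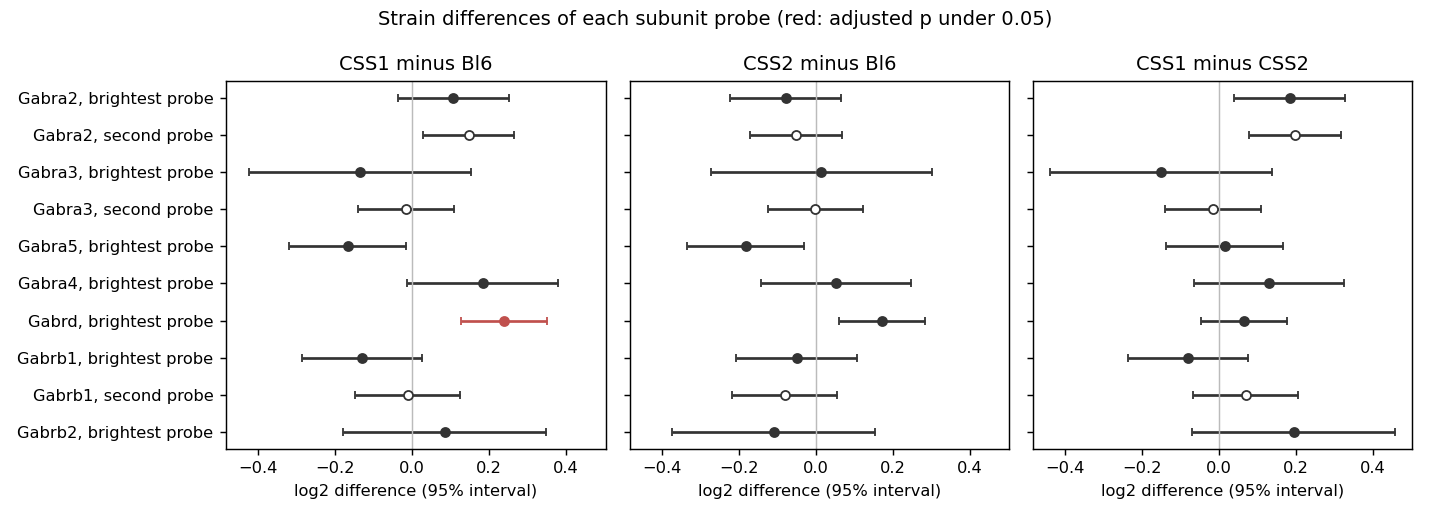
Log2 difference of each of the 10 member probes in the 3 comparisons, with the 95% interval of the limma fit. Filled points are the brightest probe of a gene and open points the second, and Gabrd in CSS1 against Bl6 is the point in red, with an adjusted p under 0.05.

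The early and late subunits were set against each other within each mouse. The early value was the mean of Gabra2, Gabra3 and Gabra5, and the late value the mean of Gabra4 and Gabrd, so the late value rests on 2 genes, one of which is the member that passed in CSS1. Early minus late was 0.02, 0.0046, -0.07 and 0.03 in Bl6 mice 2, 5, 8 and 11. It was -0.25, -0.36, -0.31 and -0.19 in CSS1 mice 3, 6, 9 and 12, and -0.24, -0.26, -0.11 and -0.18 in CSS2 mice 1, 4, 7 and 10. All mice of both strains were below all Bl6 mice, and CSS1 and CSS2 overlapped. Gabrd, which is part of this value, was by itself above all Bl6 mice in both strains. Single genes were higher without overlap in 4.49% of cases in CSS1 and 4.16% in CSS2. How often other sets of genes separate in this way was not counted. Of the early genes, only Gabra5 was below Bl6 in both strains. Gabra2 differed from Bl6 by 0.11 in CSS1 and -0.08 in CSS2, and Gabra3 by -0.14 and 0.01.

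The mean of early minus late was -0.0014 ± 0.05 in Bl6, -0.28 ± 0.07 in CSS1 and -0.20 ± 0.07 in CSS2 (SD, n = 4). The early mean was -0.02 ± 0.07 in Bl6, -0.09 ± 0.06 in CSS1 and -0.10 ± 0.08 in CSS2, and the strains overlapped. The late mean was -0.02 ± 0.04 in Bl6, 0.19 ± 0.10 in CSS1 and 0.09 ± 0.05 in CSS2. On the late side every CSS1 and CSS2 mouse was above every Bl6 mouse, with the lowest CSS2 mouse at 0.0325 and the highest Bl6 mouse at 0.0314. No p is given for this value, because its genes were chosen with earlier results of these mice known. With scale normalization between arrays the differences of CSS1 and CSS2 from Bl6 were -0.18 and -0.11.

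**Figure D4:**
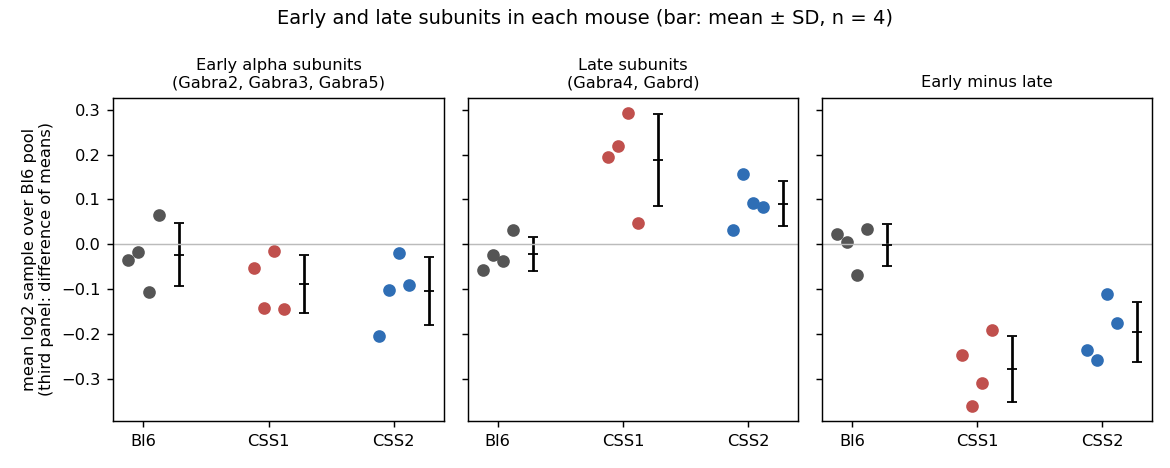
Mean log2 sample over Bl6 pool of the early alpha subunits, of the late subunits, and the early mean minus the late mean, in each mouse with the mean ± SD of the 4 mice of a strain. In the panel of early minus late, all CSS1 and CSS2 mice lie below all Bl6 mice.

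The members did not vary as 1 group over the mice. By the brightest probes, the closest pair was Gabra5 and Gabrb1, with a correlation of 0.76 over the 12 mice, but the second Gabrb1 probe correlated with Gabra5 at -0.16. Gabra2 and Gabra4 correlated at 0.66, and at 0.63 with the second Gabra2 probe. Gabrd ran opposite to Gabra3 at -0.57 and to Gabra5 at -0.48. Gabrb1, whose first start site faces that of Gabra4, correlated with Gabra4 at -0.04 by its brightest probe and at -0.54 by its second. These correlations are descriptions over arrays that share a reference pool. The genes most like Gabrd, out of 19212 compared over the 12 mice, were Ly6a (0.97), Igfbp6 (0.97) and Ggact (0.97). Their differences of CSS1 from Bl6 were 0.52, 0.33 and 0.26, in directions fixed by the choice, since they were picked for their likeness to Gabrd over the same mice. Most like Gabra2 was Trak1 (0.93), a motor adaptor, and most like Gabra3 was Enox2 (0.95), also on the X chromosome. For Gabra5 it was Ydjc (0.93), for Gabra4 Herpud2 (0.94), for Gabrb1 Tbrg1 (0.96) and for Gabrb2 Slc25a27 (0.96), and none of these 6 passed in either strain against Bl6.

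The array held 9 other GABA-A subunits with a named probe, Gabra6, Gabre, Gabrg1, Gabrg3, Gabrp, Gabrq and Gabrr1 to Gabrr3, and none passed in any comparison. Gabra6 encodes the alpha 6 subunit, which is known from cerebellar granule cells. It was at -0.54, -1.26, 0.23 and 0.69 in Bl6 mice 2, 5, 8 and 11. The CSS1 mice 3, 6, 9 and 12 had -0.44, 0.64, -0.04 and -0.25, and the CSS2 mice 1, 4, 7 and 10 had 2.36, 0.90, 1.12 and 1.98. All CSS2 mice were above all other mice. CSS2 was above Bl6 by 1.81 ± 0.44 (SE), or 3.5-fold, with an interval of 0.84 to 2.78, and the difference did not pass (limma adjusted p = 0.111). CSS1 minus CSS2 was -1.61 (limma adjusted p = 0.188). The Gabra6 probe had a strong dye effect, with Cy5 samples higher by 1.07 than Cy3 samples before that effect was removed. Its mean log2 intensity was 7.72. Gabrg3, a gamma subunit, was at -0.17 in CSS2 (limma adjusted p = 0.252) and at -0.10 in CSS1 (adjusted p = 0.579) by its brightest probe. Its other probes gave -0.06, 0.03 and -0.07 in CSS2 and -0.03, 0.03 and -0.06 in CSS1.

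Other genes known from the cerebellum were high in the same mice as Gabra6. They were listed after the Gabra6 values had been seen. Of the 13 other genes, 13 were above Bl6 in CSS2, with a median difference of 0.41, and 8 in CSS1, with a median of 0.03. In 3 of the 13 the CSS2 and Bl6 mice did not overlap, where 4.16% of all genes were higher without overlap. None of the 13 passed. Their median per mouse was -0.27 to 0.23 in Bl6, -0.06 to 0.06 in CSS1 and 0.22 to 0.57 in CSS2. Cbln3, a granule cell secreted protein, was at 1.21, 0.41, 0.31 and 1.27 in CSS2 mice 1, 4, 7 and 10. Gabrd, which cerebellar granule cells also express, correlated with the median of the whole cerebellar list at 0.20 over the mice. The part of these genes in the Gabra6 and Gabrd differences was not tested.

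**Figure D5:**
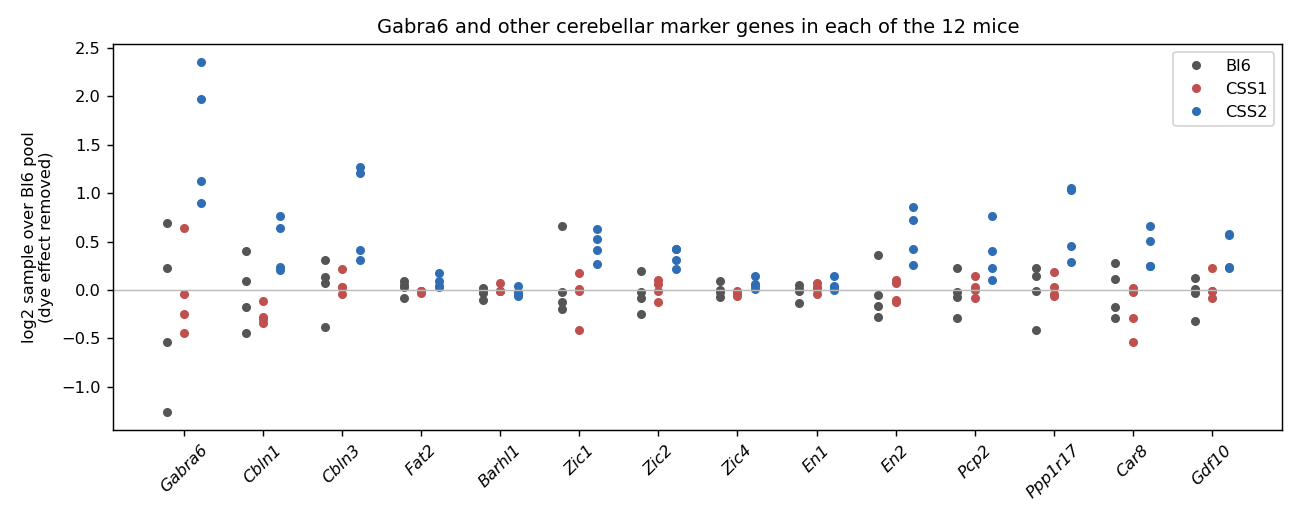
Log2 sample over Bl6 pool (fitted dye effect removed) of Gabra6 and 13 other cerebellar marker genes, 1 point per mouse coloured by strain. All CSS2 mice lie above the other mice for Gabra6, and the Gabra6 values in CSS2 run from 0.90 to 2.36.

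Genes that act with the receptor did not pass in any comparison. Of 17 genes of receptor anchoring and trafficking, 11 had a positive difference in CSS1 and 12 in CSS2, with medians of 0.04 and 0.02. Shisa7, an auxiliary protein of the receptor, was at 0.14 in CSS1 (limma adjusted p = 0.129), and Plcl1, which binds receptor and phosphatase, was at 0.18 in CSS1 (adjusted p = 0.15) and 0.18 in CSS2 (adjusted p = 0.214). Of 9 genes of GABA synthesis, release, uptake and breakdown, the smallest p in CSS1 belonged to Gad1, a GABA-synthesizing enzyme. Gad1 was at -0.10, 0.06, -0.01 and -0.01 in Bl6 mice 2, 5, 8 and 11 and at 0.26, 0.15, 0.36 and 0.13 in CSS1 mice 3, 6, 9 and 12. These groups did not overlap, but the difference of 0.24, or 1.18-fold, missed the threshold (limma adjusted p = 0.0555). Glul, the glutamine synthetase of astrocytes, was 0.36 above Bl6 in CSS1 (limma adjusted p = 0.167) and 0.29 in CSS2 (adjusted p = 0.409).

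The direction of chloride flow through the receptor is set by transporters. Of 7 chloride transport genes, 6 had a positive difference in each strain, with medians of 0.12 in CSS1 and 0.09 in CSS2. Slc12a5 (KCC2), which exports chloride from mature neurons, was at 0.21 in CSS1 (limma adjusted p = 0.542) and 0.25 in CSS2 (adjusted p = 0.514). Slc12a2 (NKCC1), which imports it, was at 0.19 in CSS1 (limma adjusted p = 0.605) and 0.25 in CSS2 (adjusted p = 0.497). The exporter and the importer thus had differences of like size and the same sign. The 6 genes of the GABA-B receptor had medians of -0.03 in CSS1 and -0.06 in CSS2, and among them Kctd16, an auxiliary subunit, was at -0.28 in CSS2 (limma adjusted p = 0.306). The 4 genes of neurosteroid synthesis had medians of -0.04 and 0.07.

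Among neuronal markers, 4 of 13 immature neuron genes fell in CSS1 and 2 in CSS2. Over all genes 2.03% passed in CSS1 and 1.04% in CSS2, in either direction. In each strain 4 of the 13 had a positive difference, and the median differences were -0.12 in CSS1 and -0.04 in CSS2. Tubb2b, a tubulin of growing neurons, fell by 0.79 in CSS1 (limma adjusted p = 0.000946), and Cd24a fell by 0.67 in CSS1 (adjusted p = 0.00131) and by 0.37 in CSS2 (adjusted p = 0.0458). The list's median lay at -0.09 to 0.08 in Bl6, at -0.43 to -0.16 in CSS1 and at -0.17 to -0.02 in CSS2, so CSS1 did not overlap with Bl6. Of 11 pan-neuronal markers, Map2 rose in CSS1 by 0.29 (limma adjusted p = 0.0303) and Nefh rose in CSS2 by 0.44 (adjusted p = 0.0241). Map2 was at -0.21 in CSS2 (limma adjusted p = 0.16), and it was higher in CSS1 than in CSS2 by 0.50 (adjusted p = 0.000945). The list had 9 positive differences in CSS1 and 7 in CSS2. Of 16 interneuron markers, Pvalb rose in both strains, by 0.49 in CSS1 (limma adjusted p = 0.0252) and by 0.60 in CSS2 (adjusted p = 0.0128), and Vip rose in CSS1 by 0.46 (adjusted p = 0.00827). The list had 12 positive differences in CSS1 and 8 in CSS2, with medians of 0.07 and 0.0022. None of the dentate granule or CA1 markers passed. Of 7 CA3 markers, Nptx1 rose in CSS1 by 0.35 (limma adjusted p = 0.0188) and Cpne4 fell in CSS2 by 0.29 (adjusted p = 0.0405). The part of these markers in the early minus late values was not tested.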

How the data were processed

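RNA of 12 mice was measured on dual-colour arrays. Per the file headers, the deposited scanner files hold intensity values (mean spot and median local background) of both channels with nothing subtracted. The authors' table of normalized log2 ratios was used as an alternative. How it was normalized, the scanner and the array's genome build: not given in the sources used here. Its column medians lay between -0.00502 and 0.00585. Its strain differences correlated over probes at 0.972 and 0.974 with those computed here, which set its scale and direction. Array by array, before the dye effect was removed here, the ratios correlated at 0.493 to 0.824. The SD of the dye effect was 0.00548 in the authors' table and 0.223 in the values computed here.

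Spots were corrected with normexp (offset 50), normalized by loess within arrays (control and quality spots at weight 0), turned to sample over pool and fitted in limma 3.58.1 (R 4.3.3) over all 12 arrays, with terms for strain and for dye orientation. Benjamini-Hochberg adjustment ran over the 39239 gene probes above a mean log2 intensity of 6.23, with a threshold of 0.05. 190 dimmer probes were left out. Array number limits the precision. The brightest probe stood for a gene. Names came from GEO's platform annotation, in which 32431 gene probes had 1 symbol, 0 several and 6998 none, updated through a RefSeq table (GRCm38.p6). All members were named with every probe. Of each other list, up to 4 genes past the threshold or 2 by smallest p were named, and for each member up to 3 genes by correlation. Genes named beyond this (Cbln3) were chosen after their values were seen. Members and lists were chosen with earlier results of these data known. The fit was tested on simulated data with independent noise. How well it recovers differences as small as those of the members is not reported here. Mice are separate animals per the labels' design text. Alternatives covered normalization, background correction, the authors' values, the dye term, samples, weights, filter, probe choice and each mouse left out.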

Additional observations from a re-analysis of the deposited data

Results flagged for a closer look

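CSS1 mouse 12 stood apart from its strain in Gabra2, at -0.0948 against 0.10 to 0.13 in the other CSS1 mice. The gap to its nearest neighbour was 0.85 of the strain's whole range, above Dixon's critical value for 4 samples. Of 51 groups of 4 mice examined, 1 was so marked, and chance marks about 1 in 20. The second Gabra2 probe was also low in that mouse, at -0.08, against 0.12 to 0.17 in the others. Without CSS1 mouse 12, the Gabra2 difference of CSS1 from Bl6 was 0.17.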

How the results depend on the processing

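The strains share no mouse numbers, so no pairing of mice by number could be made. Consecutive mouse numbers, 1 mouse of each strain per run, were used as a block in place of the dye term, which changed no member's call (Gabrd in CSS1 0.24, limma adjusted p = 0.0279). The count of members called in CSS1 against Bl6 was 1, and it was 0 in 4 fits (only the 2 strains fitted, no dye term, median centring, scale normalization) and 0 to 1 when a mouse was left out. It stayed 0 in the other comparisons under all settings run. Early minus late was -0.18 in CSS1 and -0.11 in CSS2 with scale normalization. Leaving out a mouse gave -0.31 to -0.24 in CSS1, -0.23 to -0.17 in CSS2 and -0.11 to -0.05 for CSS1 over CSS2. Signs turned only in members that had not passed. With median centring, Gabrb1 in CSS2 was 0.00080 and Gabra5 for CSS1 over CSS2 was -0.0083. With scale normalization, Gabrb2 in CSS1 was -0.0316 and Gabra4 in CSS2 was -0.0405. Array weights gave -0.0061 for Gabra5 in CSS1 over CSS2. The dimmer probe, an alternative chosen after seeing the data, gave -0.00057 for Gabra3 in CSS2 and 0.0689 for Gabrb1 in CSS1 over CSS2. Leaving out a mouse gave ranges that crossed 0 for Gabra3 (-0.237 to 0.0151 in CSS1, -0.0855 to 0.0846 in CSS2, -0.238 to 0.00027 for CSS1 over CSS2), Gabra5 in CSS1 over CSS2 (-0.0512 to 0.0749), Gabrb1 in CSS2 (-0.0816 to 0.0028) and Gabrb2 in CSS2 (-0.191 to 0.0314). Probes called over the whole array in CSS1 against Bl6 were 680, and 219 without the dye term, 177 with median centring, 355 with 2 strains fitted and 1559 with array weights. In CSS2 against Bl6 they were 355, and 179, 149 and 595 with median centring, no dye term and array weights, and 545 with consecutive mouse numbers as a block. In CSS1 against CSS2 they were 360, and 163, 211 and 236 with median centring, no dye term and 2 strains fitted. Counts with a mouse left out were 247 to 816, 169 to 357 and 237 to 369. The causes were not tested.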

Other observations

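The pair of mice with the lowest Gabra3, Bl6 mouse 8 and CSS1 mouse 6, was also the lowest pair for 686 of the 21643 genes, or 3.17%, and the highest pair for 408. By the count of genes in which it was lowest, this pair had rank 8 among 66 pairs of mice. Enox2, Olfr681 and Fam98c were the 3 genes most like Gabra3, at 0.95 each. Olfr681 and Fam98c lie on chromosome 7. The interneuron list ran opposite to Gabra3, with a correlation of -0.84 between Gabra3 and the median of its 16 genes over the 12 mice. No other correlation taken between a member and a marker list was as negative. The interneuron median was 0.12 in CSS1 mouse 6 and 0.04 in Bl6 mouse 8, each the highest of its strain. The correlation was not taken without these mice.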
